A study of Mus musculus with 14 samples.

Results

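The genes described here encode the subunits of voltage-gated sodium and calcium channels. They were taken by symbol (Scn followed by a number and a or b, or Cacn followed by a, b or g), which gave 40 of the 19215 genes in the spinal cord RNA-seq tables, and 32 of the 13189 cassette exons in the splicing tables belong to them. The rule used names alone, but the members were chosen with earlier results of these data known. The data on these genes are of 2 kinds: their RNA and exon inclusion in whole spinal cord (WSC), and the RNA fragments bound by the NOVA proteins, recovered by HITS-CLIP (crosslinking, immunoprecipitation and sequencing of the bound fragments).

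HITS-CLIP was done on 12 libraries from 3-month-old C57BL/6 mice. Motoneuron (MN) NOVA CLIP came from hemizygous mice of lines Chat:GFP-Nova #6 and #17 (4 libraries each, every one from pooled cords), in which a BAC transgene under the Chat promoter drives AcGFP-tagged NOVA2, and was done with monoclonal antibodies to GFP. WSC NOVA CLIP came from wild type cords (4 libraries) and was done with anti-NOVA serum. The tagged protein is the long NOVA2 isoform alone, whereas the serum reads endogenous NOVA1 and NOVA2, so cell type, transgene, protein form and antibody cannot be told apart in this comparison. RNA-seq was done on poly-A RNA of whole cord from 12-week-old B6/SJL mice carrying Tg(SOD1)2Gur/J, a transgene of wild type human SOD1, with 1 male and 1 female library. Since both libraries carry the transgene and each sex has 1 library, sex and library cannot be told apart.

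Each channel is built around a pore-forming subunit, called alpha in sodium channels and alpha1 in calcium channels. Sodium channels open quickly on depolarisation and carry the upstroke of the action potential, and their beta subunits are membrane proteins that set gating and act in cell adhesion. Calcium channels turn depolarisation into calcium entry. The L-type pores couple activity to gene expression and plateau potentials, the P/Q-, N- and R-type pores trigger transmitter release, and the T-type pores open near the resting potential. Alpha2delta and beta subunits bring the pore to the membrane, and most proteins named gamma act as partners of AMPA-type glutamate receptors. NOVA proteins bind clusters of the tetramer YCAY (Y being C or T) in neuronal transcripts, within introns to steer splicing and within the last exon to steer 3′ end use.

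MN CLIP libraries held 65961 to 871804 unique reads and WSC libraries 2213104 to 6095995. The share of genic reads that fell in exons was 33.2% to 46.5% in MN libraries and 60.6% to 65.9% in WSC libraries, with no overlap, so the genes were also tested on exonic reads and on intronic reads alone where counts allowed. Markers followed the labels in part: the 3 motoneuron genes tested (Chat, Slc5a7 and Chodl) were higher in MN CLIP by 3.09, 2.25 and 2.49 on the log2 scale, all 4 inhibitory neuron genes and the 1 excitatory neuron gene tested (Slc17a6) were lower, and of the glial genes all 3 astrocyte genes and 1 of 3 oligodendrocyte genes were lower. On exonic reads alone, however, the astrocyte genes Gfap (-0.03, edgeR adjusted p = 0.891) and Aqp4 (-0.0075, adjusted p = 0.972) did not pass the test, and Pmp22 of the Schwann cell list, the only one tested, was higher in MN on the whole span (1.80, adjusted p = 1.03e-11). In the RNA-seq libraries the 6 skeletal muscle markers summed to 2.08 and 2.44 RPKM, and 4 of the 5 sensory ganglion markers stayed under 1 RPKM in both, the exception being Calca. MN replicates 3 and 4 of each line and all WSC libraries were sequenced in 1 run according to their read names, and values within this run are given where a call changes. In that run these MN libraries and WSC replicate 1 were in lane 1, and WSC replicates 2, 3 and 4 in lane 2. Lane and group are therefore largely confounded within it.

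Spinal cord expressed most of the family. At a mean of 1 RPKM or more (reads scaled by exon length and library total, so that genes can be compared), 30 of 40 genes were detected, and 15 reached 10 RPKM. Cacng6 had no read in either library.

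**Figure D1:**
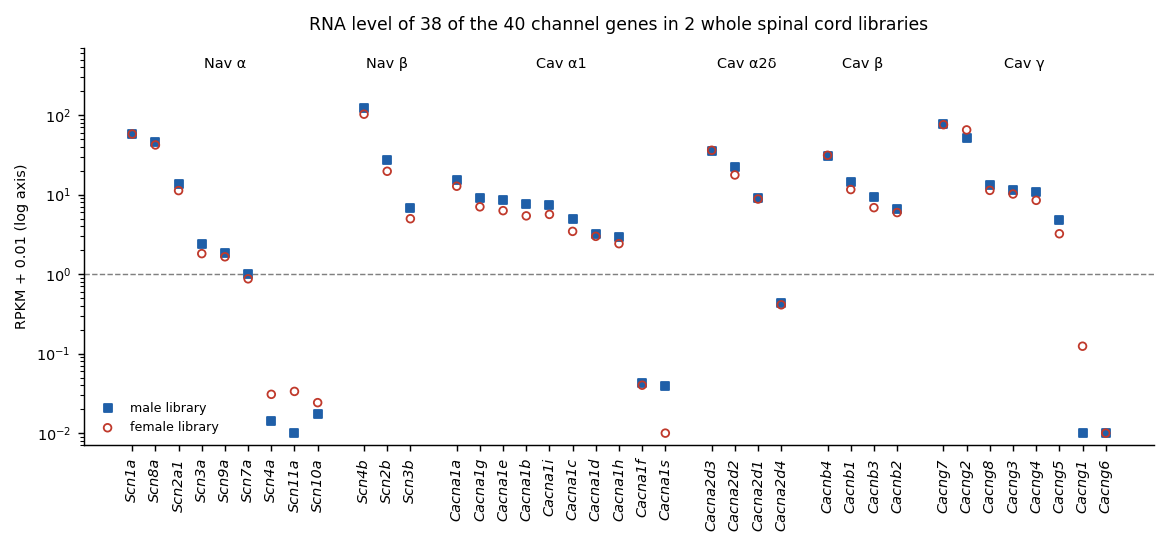
RNA level of 38 of the 40 channel genes, grouped by subunit, as RPKM + 0.01 on a log axis, with squares for the male library and circles for the female library. Scn4b, Cacng7, Cacng2 and Scn1a lie near the top, and genes such as Cacng6, Cacna1s and Scn10a lie far under 1 RPKM (dashed line).

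Among the sodium channel pores, 5 of 10 reached 1 RPKM. Scn1a (Nav1.1) was read at 57.6 RPKM in the male and 57.8 in the female library, and Scn8a (Nav1.6, the main channel of mature axon initial segments and nodes of Ranvier) at 45.7 and 42.1. Scn2a1 (Nav1.2) followed at 13.4 and 11.2 RPKM. The ranges of these 3 genes did not overlap, so their order was the same in both libraries. Scn3a (2.38 and 1.80 RPKM) and Scn9a (1.85 and 1.64) lay far lower, and their ranges did overlap. The skeletal muscle pore Scn4a was near absence at 0.00421 and 0.0208, and the nociceptor pores Scn10a and Scn11a at no more than 0.0235.

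Of the sodium channel beta genes, Scn4b, whose product gives resurgent current in fast-spiking neurons, was read at 123 and 103 RPKM. Scn2b stood at 27.2 and 19.7 RPKM and Scn3b at 6.75 and 4.97. These ranges did not overlap.

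The calcium channel pores were lower: 8 of 10 reached 1 RPKM, and only Cacna1a (P/Q type) passed 10, at 15.2 and 12.7 RPKM. The T-type Cacna1g was read at 9.07 and 7.01 RPKM, the R-type Cacna1e at 8.50 and 6.28, the N-type Cacna1b at 7.70 and 5.40 and the T-type Cacna1i at 7.39 and 5.63. These 4 ranges overlapped with their neighbours. Within each library Cacna1g was the highest of the 4 and Cacna1e came next, whereas Cacna1b and Cacna1i changed places, so the order of those 2 is not resolved. The L-type Cacna1c (4.96 and 3.44 RPKM) and Cacna1d (3.20 and 2.98) and the T-type Cacna1h (2.94 and 2.41) were lowest among the expressed pores, whereas the retinal Cacna1f and the muscle Cacna1s stayed at or under 0.0333 RPKM.

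For the auxiliary subunits, Cacna2d3 led the alpha2delta genes at 35.8 and 36.1 RPKM, ahead of Cacna2d2 (22.1 and 17.7) and Cacna2d1 (9.12 and 8.79, the target of gabapentin), with Cacna2d4 at 0.425 and 0.401. Cacnb4 led the beta genes at 30.2 and 31.3 RPKM, followed by Cacnb1 (14.4 and 11.6), Cacnb3 (9.34 and 6.85) and Cacnb2 (6.62 and 5.94). Of the gamma genes, Cacng7 stood at 76.9 and 75.8 RPKM and Cacng2 (stargazin) at 52.0 and 65.2, while Cacng8, Cacng3, Cacng4 and Cacng5 lay between 3.21 and 13.1. Cacng1, a muscle subunit, had no read in the male and 9 reads in the female library.

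Between the 2 RNA-seq libraries, channel genes differed little in size. No member was lower in the female library by over 1.5-fold (background 4.79% of all 19215 genes), and 1 was higher (Cacng1, on those 9 reads; background 3.66%). The direction was uneven, however: 26 of the 30 members at 1 RPKM or more were lower in the female library, against 51.3% of all 11940 genes at that level, and the median log2 ratio of female over male was -0.26 for the members and -0.01 for all such genes. The lean was not particular to the members. Of the channel partner genes described below, 19 of 24 (79.2%) were lower, against 42.9% of all 19215 genes, both at any RNA level. That background is lowered by 3206 genes with equal values in both libraries, whereas no partner was equal. The 51.3% of genes at 1 RPKM or more is the nearer background. Every calcium channel pore was on the lower side, as were Scn2b, Scn3b and Scn4b, and only Scn1a, Cacna2d3, Cacnb4 and Cacng2 among the 30 were on the higher side. The largest falls among the 30 were Cacng5 (-0.58), Cacna1c (-0.51) and Cacna1b (-0.51). With 1 library a side this is a difference between libraries with no replicate check. Motoneuron markers moved the other way, from a summed 110 RPKM in the male to 139 in the female library, while of the pan-neuronal markers Snap25 (2029 and 2084 RPKM) and Tubb3 (300.3 and 307) were slightly higher and Syt1 (58.1 and 49.1) lower, and 3 of 4 inhibitory neuron markers were lower; the part of cell composition in this result was not tested, and in whole tissue fewer cells of a type and less RNA per cell cannot be told apart.

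NOVA CLIP reads were found in 38 of 40 channel genes, Scn4a and Cacng1 having none. Reads were given to a gene by strand and midpoint over its whole span and scaled to library size (CPM), and 25 members passed the filter on low counts. The filter asked for enough reads in as many libraries as the smaller group has, so a gene could pass through 1 group alone. Of the members called, Scn9a passed through MN alone, and Scn2b and Cacna1i through WSC alone, each the group where it was higher. Members differed between MN and WSC about as often as other genes did: at a false discovery rate (FDR) of 0.01 in edgeR's quasi-likelihood test, 7 of 25 were higher in MN (background 28.1% of 4329 genes) and 8 of 25 were lower (background 28.7%). The libraries of both groups were fully separated for 12 of the 25 members tested (background 28.6% of genes tested), all 12 being among the 15 called. CLIP counts rest on RNA level as well as on binding, and RNA of sorted motoneurons was not analysed here. The 15 members that did not pass the filter had up to 512 reads in all, the most being those of Cacng8, and the highest MN count among them was 52.

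**Figure D2:**
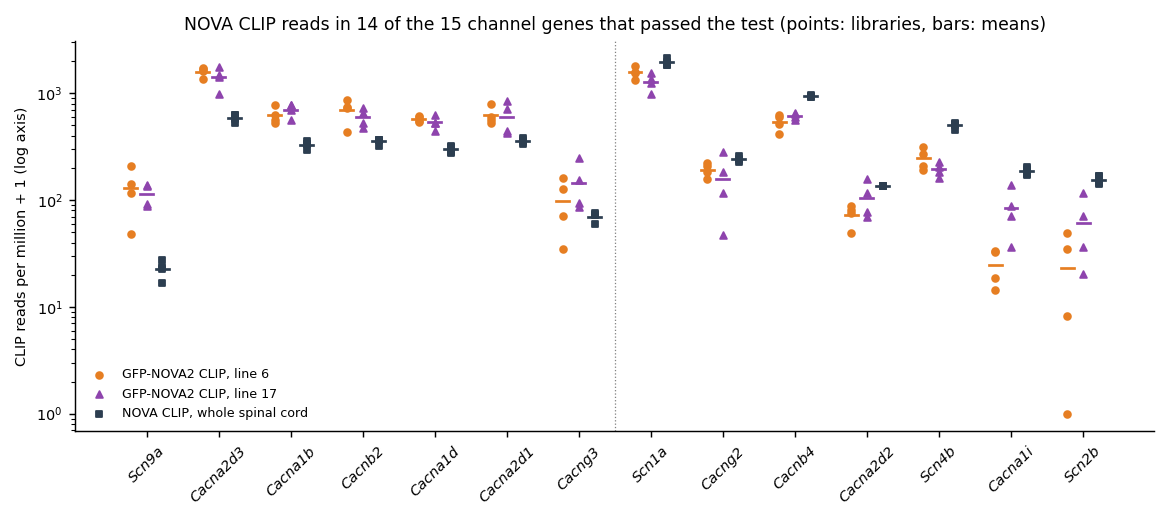
NOVA CLIP level (CPM plus 1, log axis) in each of the 12 libraries for 14 of the 15 channel genes past the test, with circles for line 6, triangles for line 17, squares for WSC and bars for the mean of each. The 7 genes left of the dotted line are higher in motoneuron CLIP, led by Scn9a, and those on the right are lower, with Scn2b and Cacna1i farthest down.

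Separating exonic from intronic reads changed the picture for several members. On exonic reads alone 4 of 19 members tested were higher in MN (background 24.8%) and 7 were lower (background 24.5%). On intronic reads alone 4 of 20 were higher (background 12.9%) and 2 were lower (background 13.7%). Of the 15 genes called on the whole span, 11 could be tested on exonic reads and 8 of these were called in the same direction, and 13 could be tested on intronic reads with 4 called in the same direction. Within the shared sequencing run all 15 kept their direction and 12 their call.

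**Figure D3:**
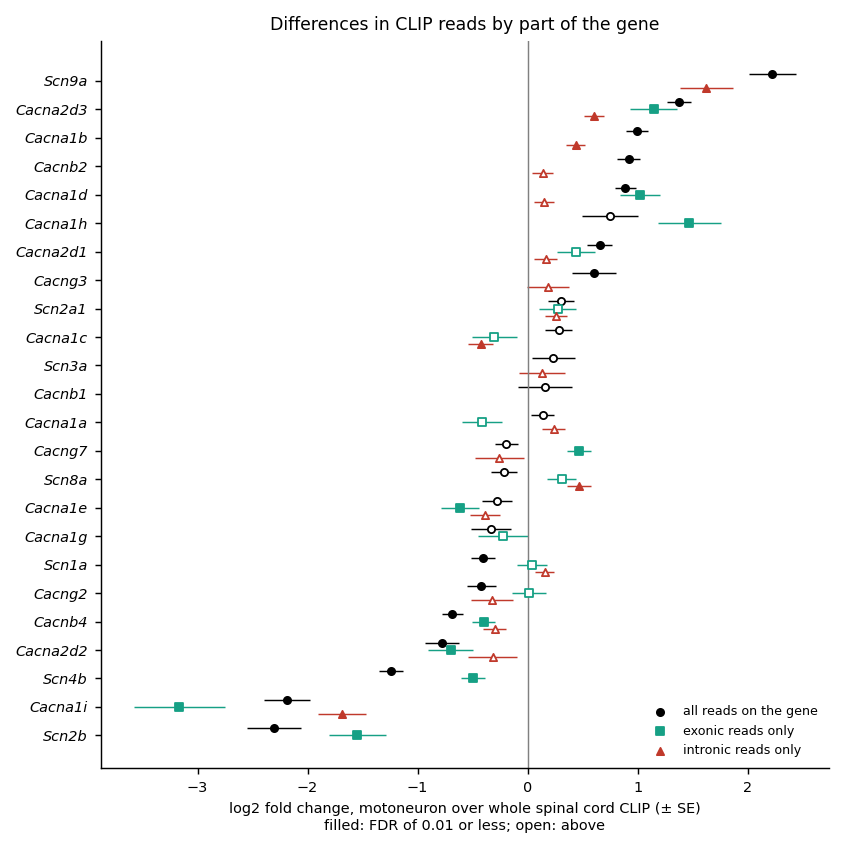
Log2 fold change of CLIP reads, motoneuron over whole spinal cord, with its standard error, for 24 of the 25 members tested, from all reads (circles), exonic reads (squares) and intronic reads (triangles). Filled symbols pass an FDR of 0.01. Cacna2d3 lies right of zero and Cacna1i left of zero in all parts, whereas Scn1a falls near zero once the parts are separated.

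For each of the 25 members the densest site was taken, defined as the 51 bases with the highest mean share of the gene's reads in MN and WSC. Such a site can hold a small part of the binding. In MN it held as little as 1.41% of a gene's reads (Cacna1c) and as few as 3 reads (Cacng3). Of these sites 12 were in untranslated regions (UTRs), all at the 3′ end, 8 in coding exons and 5 in introns. The 13 sites outside UTRs carried 3.69 YCAY tetramers on average, against 0.856 in the 99378 windows of that length tiled over the whole spans of the same genes, which are mostly intron, and 9 of 13 held at least 3, as 5.97% of the windows did. For the 12 sites in UTRs, the middle 29 bases held 1.5 on average against 0.465, and 11 of 12 held at least 1, as 36.7% of the windows did. Sites below are read 5′ to 3′ on the gene's strand of mm9 (NCBIM37), with YCAY in capitals, overlapping copies included, and UTR sites are cut to their middle 29 bases, while read shares refer to all 51. A match of these letters is a description of the site only.

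Among the sodium channel pores tested, Scn9a (Nav1.7, best known from sensory and sympathetic neurons) differed most. It passed the filter only through its MN libraries, where it was high. It had 47.0 to 207 CPM in MN libraries, with a median of 125, and 21.6, 22.4, 26.4 and 15.8 in the WSC libraries. No MN library reached down to the WSC range, and the difference was 2.23 on the log2 scale (SE 0.22, edgeR adjusted p = 4.53e-10), or 4.68-fold. It held on intronic reads alone (1.62, SE 0.24, adjusted p = 9.31e-07), and exonic reads were too few to test. This rests on 138 MN reads and 292 WSC reads. The densest site, with only 8 MN and 16 WSC reads, lay in its 3′ UTR at chr2:66318881-66318909 on the minus strand. It is shown next beside that of Scn1a (chr2:66109381-66109409, minus strand), the pore gene with the most reads in WSC.

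Scn9a: CCATtTCATgttgattagtgtttggacta

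Scn1a: actttctgtCCACagcagttttTCATgga

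Scn1a itself ran the other way on the whole span. It had 990.15 to 1808 CPM in MN (median 1449) and 1964, 1847, 1836 and 2114 in WSC, which did not overlap, with a log2 difference of -0.41 (SE 0.11, edgeR adjusted p = 0.00152). Neither part of the gene showed it, as exonic reads gave 0.04 (SE 0.14, adjusted p = 0.834) and intronic reads 0.15 (SE 0.09, adjusted p = 0.17), and the call was also lost within the shared run (-0.29, adjusted p = 0.0193), in line 6 alone (-0.29) and with 1 read per position (-0.20). The exonic share of its reads was 69.9% in MN and 88.2% in WSC. Scn8a gave -0.22 on the whole span (adjusted p = 0.0981) but 0.47 on intronic reads (SE 0.11, adjusted p = 0.001), the opposite sign, and 0.31 on exonic reads (adjusted p = 0.0515). Scn2a1 (0.30, adjusted p = 0.0219) and Scn3a (0.23, adjusted p = 0.294) did not pass the test, nor did their parts, at 0.27 (exonic) and 0.25 (intronic) for Scn2a1 and 0.13 (intronic) for Scn3a. Scn7a, an atypical pore, had 12 MN and 307 WSC reads and missed the filter. Within the shared run it passed through WSC alone, where it was high, and was lower in MN (-2.03, SE 0.49, edgeR adjusted p = 0.000484). Its MN libraries of that run had 0 to 6.80 CPM.

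The sodium channel beta genes Scn2b and Scn4b were lower in MN CLIP. Scn2b had 0 to 115 CPM in MN (median 34.7) and 143, 167, 168 and 139 in WSC, a log2 difference of -2.31 (SE 0.24, edgeR adjusted p = 2.05e-09), and on its exonic reads -1.55 (SE 0.26, adjusted p = 1.18e-05). Scn4b had 161 to 314 in MN (median 206) and 502, 530.0, 449.6 and 516 in WSC, giving -1.24 (SE 0.11, adjusted p = 9.58e-11), which shrank to -0.50 on exonic reads (SE 0.11, adjusted p = 0.000478).

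MN and WSC libraries were separate for both genes. MN depth was thin, with 42 reads in Scn2b and 277 in Scn4b over all 8 libraries. Scn2b passed the filter only through its WSC libraries, where it was high. Scn3b, with 26 MN reads, missed the filter. A single 3′ UTR site held 26.6% of the WSC reads of Scn4b and 30% of its MN reads (chr9:44960886-44960914, plus strand). The site of Scn2b was also in the 3′ UTR, at chr9:44935460-44935488 on the plus strand.

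Scn4b: CCACatctatcctgtccTCATctctggtt

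Scn2b: tacatTCACtgccgttttactaTCATtat

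Of the 8 calcium channel pores tested, 2 rose and 1 fell in MN CLIP. Cacna1b, the N-type pore of presynaptic terminals, had 523 to 783 CPM in MN (median 654) and 295, 333, 354 and 332 in WSC. The groups did not overlap, and MN was higher by 0.99 (SE 0.10, edgeR adjusted p = 4.53e-10). The rise held on intronic reads, at 0.44 (SE 0.09, adjusted p = 9.97e-05), and exonic reads were too few to test. The exonic share of its reads was 4.09% in MN and 22.1% in WSC. The densest site was in an intron, 100 nt from the nearest annotated exon (chr2:24498453-24498503, minus strand).

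Cacna1b: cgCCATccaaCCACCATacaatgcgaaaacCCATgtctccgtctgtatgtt

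Cacna1d, the L-type pore that opens at low voltages, had 443 to 630.0 CPM in MN (median 547) and 281, 322, 311 and 274 in WSC, again without overlap, for a difference of 0.89 (SE 0.09, edgeR adjusted p = 1.78e-09). Exonic reads gave 1.02 (SE 0.18, adjusted p = 3.06e-05) and intronic reads 0.15 (SE 0.09, adjusted p = 0.189). Its densest site lay 3196 nt into an intron (chr14:30875999-30876049, minus strand).

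Cacna1d: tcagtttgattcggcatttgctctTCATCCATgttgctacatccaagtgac

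The other L-type pore tested, Cacna1c, differed by part of the gene, with 0.28 on the whole span (adjusted p = 0.0449), -0.30 on exonic reads (adjusted p = 0.204) and -0.43 on intronic reads (SE 0.11, adjusted p = 0.00214).

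Of the T-type pores only Cacna1i was called on the whole span. It had 13.4 to 138 CPM in MN (median 34.1) and 193, 201, 176 and 171 in WSC, fully separate, and was lower in MN (log2 difference -2.19, SE 0.21, edgeR adjusted p = 3.51e-10). Cacna1i was also lower on exonic reads (-3.17, SE 0.41, adjusted p = 3.18e-07) and on intronic reads (-1.69, SE 0.22, adjusted p = 7.98e-08), on 54 MN reads in all. On the whole span it passed the filter only through its WSC libraries, where it was high. Cacna1h gave 0.75 on the whole span (adjusted p = 0.0117) and 1.47 on exonic reads (SE 0.28, adjusted p = 7.81e-05), on 63 MN reads, with 0 to 115 CPM in MN against 24.0 to 31.2 in WSC. Cacna1g, at -0.33, did not pass the test (adjusted p = 0.109), nor did its exonic reads (-0.22, adjusted p = 0.412).

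All 3 T-type genes had their densest site in a coding exon, at chr11:94293795-94293845 (minus strand) in Cacna1g, chr17:25518385-25518435 (minus strand) in Cacna1h and chr15:80209510-80209560 (plus strand) in Cacna1i. These sites are printed to show how alike they are. The Cacna1h and Cacna1i sites shared an unbroken run of 28 bases, and a read lying wholly within that run matches both genes, while the Cacna1g site shared at most 9 with either.

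Cacna1g: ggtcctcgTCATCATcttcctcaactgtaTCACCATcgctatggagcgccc

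Cacna1h: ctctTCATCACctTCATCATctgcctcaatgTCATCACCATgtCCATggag

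Cacna1i: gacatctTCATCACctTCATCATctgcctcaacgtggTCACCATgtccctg

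The release-type pores Cacna1a and Cacna1e were not called on the whole span. Cacna1a had 363 to 612 CPM in MN and 346 to 441 in WSC, with a difference of 0.14 (SE 0.11, adjusted p = 0.254). Its parts had opposite signs, exonic reads giving -0.42 (SE 0.18, adjusted p = 0.0481) and intronic reads 0.24 (SE 0.10, adjusted p = 0.0693), neither past the threshold. Cacna1e had 202 to 576 and 405 to 433, with -0.28 (SE 0.14, adjusted p = 0.075), and was lower on exonic reads (-0.62, SE 0.17, adjusted p = 0.00297), at -0.39 on intronic reads (adjusted p = 0.0202), and lower within the shared run (-0.48, adjusted p = 0.000785). The muscle and retinal pores Cacna1s and Cacna1f had 5 and 2 reads in all libraries together.

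The 3 alpha2delta genes tested were all called, and not in the same direction. Cacna2d3 had 990.15 to 1767 CPM in MN (median 1539) and 522, 620.4, 626 and 577 in WSC. No library overlapped, and MN was higher by 1.38 (SE 0.11, edgeR adjusted p = 5.44e-12), or 2.60-fold, with 1.15 on exonic reads (SE 0.21, adjusted p = 5.1e-05) and 0.60 on intronic reads (SE 0.09, adjusted p = 1.94e-06). It was the only member called higher on the whole span, on exons and on introns. Among those higher on the whole span, however, Cacna1b, Scn9a, Cacnb2 and Cacng3 had too few exonic reads to test.

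Cacna2d1 had 420.0 to 852 in MN (median 578) and 334, 348, 378 and 367 in WSC, higher by 0.65 (SE 0.12, adjusted p = 1.4e-05), with neither exonic reads (0.44, adjusted p = 0.0267) nor intronic reads (0.17, adjusted p = 0.218) past the threshold. Cacna2d2 was lower at -0.78 (SE 0.15, adjusted p = 6.82e-05), with 47.8 to 157 in MN (median 78.2) and 133 to 135 in WSC, where the groups overlapped. On exonic reads it gave -0.70 (SE 0.20, adjusted p = 0.00423). The 3 genes each had their densest site in the 3′ UTR, as shown for Cacna2d3 (chr14:29718213-29718241, minus strand). That site held 1.61% of the MN reads and 4.62% of the WSC reads of Cacna2d3. Only 5.01% of its MN reads were exonic.

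Cacna2d3: caccctTCATcagaaatggggctgtactg

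The calcium channel beta genes split likewise. Cacnb4 had 419 to 646 CPM in MN (median 598) and 941, 928, 922 and 952 in WSC, with no overlap and a difference of -0.69 (SE 0.09, edgeR adjusted p = 3e-07). Exonic reads gave -0.40 (SE 0.10, adjusted p = 0.00169) and intronic reads -0.30 (SE 0.11, adjusted p = 0.0234). Cacnb2 had 431 to 872 in MN (median 687) and 320.35, 361, 367 and 361 in WSC, higher by 0.92 (SE 0.10, adjusted p = 8.14e-09), but 0.14 on intronic reads (adjusted p = 0.257), with 6.02% of its reads in exons in MN and 10.6% in WSC. Cacnb1 did not pass the test (0.16, adjusted p = 0.587), and Cacnb3 had 7 MN reads. The sites of Cacnb4 (3′ UTR, chr2:52286897-52286925, minus strand) and Cacnb2 (intron, chr2:14836008-14836058, plus strand) read as follows.

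Cacnb4: aTCATtTCATccttgaagggaaggaattt

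Cacnb2: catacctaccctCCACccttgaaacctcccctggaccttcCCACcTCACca

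Gamma genes gave the weakest calls. Cacng3 was higher in MN by 0.60 (SE 0.20, edgeR adjusted p = 0.00923), with 33.6 to 245 CPM in MN and 58.3 to 73.9 in WSC, which overlapped, and intronic reads gave 0.18 (adjusted p = 0.468). Cacng2 was lower at -0.42 (SE 0.13, adjusted p = 0.00584), with 46.1 to 280.0 and 225 to 259, also overlapping, and its exonic reads gave 0.01 (adjusted p = 0.945). Both calls were lost within the shared run (adjusted p = 0.0217 and 0.0501) and on leaving out single libraries. Cacng7 showed no difference past the threshold on the whole span (-0.19, adjusted p = 0.102) and was higher on exonic reads (0.46, SE 0.11, adjusted p = 0.000624).

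No member was called between the 2 transgenic lines. The count past an FDR of 0.01 was 0 of 25 members and 0 of 4329 genes (background 0.0%) in edgeR's quasi-likelihood test, and 0 in DESeq2. At an unadjusted p under 0.05 edgeR gave 3 members (Scn2a1, Cacna1e and Cacna1i, all higher in line 17) of 25, beside 203 of 4329 genes, and DESeq2 gave 4 members beside 219 genes. The largest of these, Cacna1i, was higher in line 17 by 1.03 on the log2 scale with an edgeR adjusted p of 0.983.

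Proteins that bind or position these channels were examined as a list of 28, of which 24 were found by symbol and 19 could be tested. In MN CLIP 10 were higher and 3 were lower on the whole span (backgrounds 28.1% and 28.7%). Gem, a small GTPase that inhibits calcium channels, was higher by 2.94 on 60 MN reads and 75 WSC reads. Cabp1, a calcium sensor for calcium channels, was higher by 1.43, and Rimbp2, which tethers calcium channels at release sites, by 1.29. The sodium channel binding factors Fgf12, Fgf13 and Fgf14 were higher by 0.58, 0.80 and 0.89. Ank3, which anchors sodium channels at the initial segment, was lower at -0.65 and Bzrap1 at -1.35. On exonic reads 2 of 11 were higher and 5 were lower (backgrounds 24.8% and 24.5%). On intronic reads 2 of 15 were higher and 2 were lower, near the backgrounds of 12.9% and 13.7%. Fgf12, Fgf13 and Fgf14 gave 0.15, 0.16 and 0.09 on intronic reads, none past the threshold. Of the 10 higher on the whole span, Cabp1 and Rimbp2 were also higher on intronic reads, whereas Fgf12 and Rims1 were among those lower on exonic reads.

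Of the 32 cassette exons of channel genes, 20 in 12 genes had at least 10 junction reads in each RNA-seq library, and 6 had none in either. Inclusion was computed as the mean of both inclusion junctions over that mean plus skipping reads. A mean inclusion above 90% was found for 13 (65%, against 54.2% of the 9396 covered exons of all genes), 11 of them with no skipping read in their own event, and 3 lay below 10% (15% against 18.4%). The other 4 of 20 (20%) lay between 10% and 90%, against 27.4% of all covered exons, and with 10 junction reads over both libraries together it was 7 of 24. Among the 11, the 144 nt exon of Cacna1g was passed over by 18 and 12 reads that belong to the event of its 135 nt neighbour, so its rate of 100% is overstated. It is counted above 90% by the junctions of its own event only, and these counts do not take the passing reads in. No member exon was called between the male and female libraries (0 of 20 by Fisher's exact test at an FDR of 0.1, background 4.26%). With 20 exons tested, 0 calls lie near that background. At an unadjusted p under 0.05 there were 0 member exons, beside 1157 of the 9396 covered exons of all genes.

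**Figure D4:**
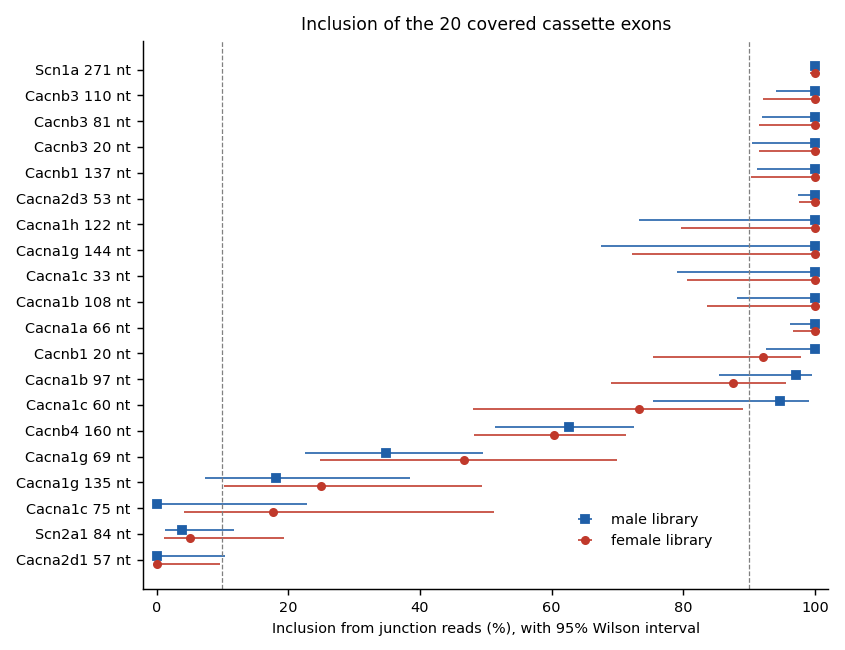
Inclusion of the 20 covered cassette exons in the male (squares) and female (circles) libraries, with 95% Wilson intervals that cover counting error only. Exons are named by gene and length, and 4 exons of Cacna1c, Cacnb4 and Cacna1g have a mean between the dashed lines at 10% and 90%.

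The T-type gene Cacna1g held 2 of the 4 variable exons, which are printed here as the clearest alternative coding segments of the family. The first, 69 nt at chr11:94301023-94301091 (minus strand), was included at 34.8% (Wilson 95% interval 22.6% to 49.5%) in the male library, from 60 junction reads, and at 46.7% (24.8% to 69.9%) in the female, from 22. The second, 135 nt at chr11:94274404-94274538 (minus strand), was included at 18.2% (7.31% to 38.5%) and 25% (10.2% to 49.5%), with no read on its first junction in either library and 8 on its second in each. That first junction runs from the exon before the 144 nt exon, and the 2 and 8 reads that join the 144 nt exon to the 135 nt exon are not counted in this rate. Any reads from the 144 nt exon past the 135 nt exon belong to no event and are not counted either. The direction of the error in this rate is therefore not known. Both lengths are multiples of 3, so skipping keeps the reading frame. The intervals of the libraries overlap for both.

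Cacna1g exon of 69 nt: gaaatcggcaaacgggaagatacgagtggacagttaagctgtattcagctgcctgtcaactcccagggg

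Cacna1g exon of 135 nt: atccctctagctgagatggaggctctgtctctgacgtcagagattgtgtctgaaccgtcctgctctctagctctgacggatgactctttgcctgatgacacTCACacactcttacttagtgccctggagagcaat

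In these exons YCAY, again in capitals, occurs 0 times and 1 time, the 100 nt before them hold 1 and 2, and the 100 nt after them 3 and 1. NOVA reads around them (the exon and 400 nt on either side) were few, with 0 in MN and 10 in WSC for the first and 1 and 16 for the second.

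Cacna1c has a pair of 60 nt exons between the same flanking exons. The one at chr6:118624364-118624423 (minus strand) was included at 94.7% (75.4% to 99.1%) in the male and 73.3% (48.0% to 89.1%) in the female library, from 37 and 26 junction reads. Its neighbour at chr6:118624573-118624632 had 1 inclusion read in both libraries together. The first junction of the included exon had 6 reads in each library and the second 30 and 16, so the rate rests on unequal junctions. A few NOVA reads lay around it, 8 in MN and 19 in WSC.

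Cacna1c exon of 60 nt: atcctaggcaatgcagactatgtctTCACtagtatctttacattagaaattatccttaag

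The exon of Cacnb4, 160 nt at chr2:52411722-52411881 (minus strand), was included at 62.6% (51.5% to 72.5%) and 60.3% (48.2% to 71.3%). It had the most junction reads of the 4, at 126 and 105. Its first junction had 20 and 21 reads and its second 77 and 58, so this rate also rests on unequal junctions, which the intervals do not cover. It is mostly 5′ UTR in the annotation and ends in the first coding bases. NOVA reads around it numbered 3 in MN and 11 in WSC.

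At the low end, the 57 nt exon of Cacna2d1 was skipped in all 33 and 36 junction reads, which allows an inclusion of up to 10.4% and 9.64% (Wilson). An 84 nt exon of Scn2a1 that the annotation does not hold was included at 3.88% and 5.08%. At the high end, the 271 nt exon of Scn1a had no skipping read beside 1206 and 1023 inclusion junction reads, and the 66 nt exon of Cacna1a none beside 195 and 219. The 97 nt exon of Cacna1b stood at 97.1% and 87.5%, with 1 and 3 skipping reads.

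NOVA reads near cassette exons, relative to those of the gene, could be tested for 2 member exons, and both were lower in MN (background 31.5% of 54 windows). The window of the Scn1a exon held 2.41% of the gene's reads in WSC (589 reads) and 0.740% in MN (15), a log2 difference of -1.70 (SE 0.33, edgeR adjusted p = 1.81e-06). Single MN libraries held 0 to 5 of these reads and single WSC libraries 74 to 224. This window therefore passed the filter on low counts only through WSC, where it was high. The window of the Cacna1a exon held 12.8% in WSC (653 reads) and 7.31% in MN (41), or -0.82 (SE 0.24, adjusted p = 0.00145). Since MN reads fell less often in exons throughout, the part of that share in these differences was not tested. With every window of at least 1 read admitted, 20 member windows were tested, these 2 were lower (background 1.69% of 8319) and 1 was higher (background 3.23%). That was the 144 nt exon of Cacna1g, with 11 reads in 6 MN libraries and 26 reads in 4 WSC libraries, or 9.82% and 1.87% of the gene's reads, and a difference of 2.24 (SE 0.55, adjusted p = 0.00667).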

How the data were processed

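HITS-CLIP libraries were deposited by the authors as 1 row per unique read, mapped to mm9 with Novoalign, with a score column. RNA-seq tables were deposited by the authors as read counts per gene, exon and junction, and as RPKM (scaled by exon length and reads on genes), after mapping to mm9 with OLego and counting with Quantas. The 2 RNA-seq libraries held 72006019 and 65625173 reads on genes. The members and the gene lists were chosen with earlier results of these data known. All members are described by role, and partners and markers come from fixed lists.

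CLIP reads were counted by strand and midpoint where 1 gene span alone covers the base, on GENCODE vM1 gene models, where entries of 1 gene within 20000 nt were joined. Counts were tested with edgeR 4.0.16 (quasi-likelihood, TMM, filterByExpr, Benjamini-Hochberg over all genes) in R 4.3.3, 8 MN against 4 WSC libraries and line 17 against line 6 in a 3-group fit, with DESeq2 1.42.0 as an alternative. CPM values are scaled by TMM. Exon windows took the exon and 400 nt on either side, with the log of the gene's reads as offset. Log2 ratios between RNA-seq libraries used RPKM + 0.1. Fisher's exact test was two-sided, on the authors' inclusion and skipping counts. Fits were tested on simulated data. Intervals cover counting error only. CLIP replicates are labelled as biological. The labels list mm10 beside mm9 for 1 CLIP library. The authors' own rates and scores were not used. Densest sites were defined after the data were seen. Alternatives were other filters, scalings, parts of the gene, lines and runs, 1 read per position, a replicate block and leaving out each library. Results for some genes are not reported here, although counts over all genes include them.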

Additional observations from a re-analysis of the deposited data

Results flagged for a closer look

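Library values of the 25 tested members were compared within each CLIP group of 4 libraries, 75 groups in all, and 4 held a library far from the other 3, and chance alone gives about 1 in 20 groups. Line 17 replicate 3 had 192 CPM in Cacna1g, with the others between 86.7 and 92.1. Line 6 replicate 2 had 34.9 in Scn3a, with the others between 79.7 and 86.6. WSC replicate 1 was low for Cacnb2, at 320 against 361 to 367, and for Cacng3, at 58.3 against 71.7 to 73.9.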

How the results depend on the processing

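Between MN and WSC, 15 members were called, and 13 of these stayed called on leaving out each CLIP library in turn, with totals of 13 to 16, 6 to 8 higher and 7 to 8 lower. The exceptions were Cacng2, lost without line 6 replicates 1, 2 or 3, line 17 replicates 1, 2 or 4, or WSC replicate 2, and Cacng3, lost without line 6 replicates 1 or 3, line 17 replicates 2 or 3, or any WSC replicate. Cacna1h was gained without line 6 replicate 2 and Scn2a1 without line 6 replicate 4. Only Cacna1b, Cacna1i, Cacna2d3, Scn2b, Scn4b and Scn9a were called under every alternative that could be fitted (25 in all). Intronic reads alone gave 6 members (4 higher, 2 lower), with fewer genes tested, and exonic reads alone gave 4 higher. Sign turned on intronic reads for Cacna1c (-0.43), Scn1a (0.15) and Scn8a (0.47), and on exonic reads for Cacng2 (0.014), Scn1a (0.036), Cacng7 (0.46), Cacna1a (-0.42), Cacna1c (-0.30) and Scn8a (0.31), and the cause was not tested. DESeq2 called 15, with Cacna1h gained and Cacng3 lost. Replicate numbers did not pair all libraries: same-number correlations ran from -0.0638 to 0.195, with 3 of 12 over 0.1. All 3 were among the 4 pairs between the lines (0.0521 to 0.195), while 1 of the 12 other pairs between the lines was over 0.1. Same-numbered libraries of the lines shared an instrument, and 7 of 8 correlated best with their own number. With a replicate block 13 members were called (6 higher, 7 lower), Cacng2 (adjusted p = 0.0199) and Cacng3 (adjusted p = 0.0152) being lost, 0 between the lines, and 2 exon windows. Without the gene's reads as offset 1 window was called, narrower windows left none to test, and so did leaving out line 6 replicate 3, line 17 replicate 4 or any WSC replicate, while the other fits gave 2. Between the RNA-seq libraries, the count past 1.5-fold was 0 with a pseudocount of 1, 0 for genes of at least 1 RPKM, and 5 with TMM-scaled counts. Members at 1 RPKM or more numbered 30 in either library. Exons of intermediate inclusion numbered 7 with 10 junction reads in both libraries together, and 3 to 6 in single libraries. MN depth, down to 42 reads over 8 libraries for Scn2b, limits what can be called.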
